A study of Mus musculus with 8 samples.

Results

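The oxygen-sensing genes described here are 10 of the 23827 rows of a table of gene counts from mouse superior cervical ganglia. They are the prolyl hydroxylase genes Egln1, Egln2 and Egln3, the ubiquitin ligase gene Vhl, the hypoxia-inducible factor genes Hif1a, Epas1, Hif3a and Arnt, and Ndufa4l2 and Cox4i2, genes of respiratory proteins linked to hypoxia. Members were matched by symbol, each stood on 1 row, and all 10 passed the filter on low counts. The members were chosen by their role and by the measured difference in counts between cKO and WT ganglia, already known for Egln3, Ndufa4l2 and Cox4i2. The differences of the 10 genes are therefore given as a description and without a p-value. The conditional knockout (cKO) libraries came from 4 mice with the genotype KIF1Bb fl/fl :DBHcre +/-, and the WT libraries from 4 mice with KIF1Bb fl/fl :DBHcre -/-. All 8 mice were C57Bl6/n on postnatal day 1 and carried the floxed allele, and each library was made from the ganglia of a single animal. Cre was driven by the promoter of Dbh, the gene of the last enzyme of noradrenaline synthesis. Which cells of the cKO ganglia lost the floxed sequence cannot be read from these counts.

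Prolyl hydroxylases of the EGLN family use oxygen and 2-oxoglutarate to hydroxylate the alpha subunits of hypoxia-inducible factor (HIF), and the VHL ubiquitin ligase then marks the hydroxylated subunits for destruction. When oxygen is short the alpha subunits persist, pair with ARNT and switch on genes of glucose use, vessel growth and respiration, among them Egln3, Ndufa4l2 and Cox4i2. EGLN3 has a further role in developing sympathetic neurons, where it promotes cell death when nerve growth factor is limiting and lies upstream of KIF1B beta. HIF proteins are controlled mainly by their stability, which RNA counts do not show.

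Of the 10 genes, 7 matched the RefSeq promoter table (GRCm38.p6). The stretches upstream of the 3 prolyl hydroxylase genes are shown because Egln3 was called higher in cKO ganglia and its paralogues were not, and because the core of the HIF binding motif, ACGTG or GCGTG on either strand, can be read in them. Capitals mark the matches, and each stretch runs 5′ to 3′ along its gene.
Egln3, chr12:54203875-54204124, minus strand: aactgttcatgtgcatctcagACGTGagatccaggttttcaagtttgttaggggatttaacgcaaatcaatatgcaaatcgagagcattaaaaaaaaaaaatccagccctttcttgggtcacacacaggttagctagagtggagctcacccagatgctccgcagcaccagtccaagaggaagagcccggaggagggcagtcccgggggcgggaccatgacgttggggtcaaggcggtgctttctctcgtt
Egln1, chr8:124949300-124949398, minus strand: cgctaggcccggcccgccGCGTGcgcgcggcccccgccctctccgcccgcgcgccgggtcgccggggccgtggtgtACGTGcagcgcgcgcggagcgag
Egln2, chr7:27166814-27166971, minus strand: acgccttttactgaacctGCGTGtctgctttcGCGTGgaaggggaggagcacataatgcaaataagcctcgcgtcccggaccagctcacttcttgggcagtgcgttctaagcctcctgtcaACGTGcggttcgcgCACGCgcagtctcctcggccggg
The stretch of Egln3 holds the 250 bases before the annotated start, with 1 match at position -229 from that start. That of Egln1 runs from -144 to -46 and holds 2 matches, and that of Egln2 runs from -169 to -12 and holds 4. Positions follow the starts of the RefSeq promoter table. In GENCODE vM21 the Egln1 gene starts at chr8:124949324, so the 3′ end of its stretch, with the ACGTG match at -68, lies within the gene there. In the 250 bases before the start, 6 of the 7 promoters had at least 1 match, Hif1a 3, Hif3a 2 and Arnt 1, and Vhl had 0. The same letters occurred in 38.6% of 27025 promoters of that length, so a match is common. One pair of overlapping Hif1a matches lies in CACGTG, a motif that other factors share and that 6.0% of promoters hold.

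Kif1b, the targeted gene, had 302, 191, 300 and 246 CPM (counts scaled to the size of the library) in cKO 1 to 4, against 1454, 1320, 933 and 1191 CPM in WT 1 to 4. Its log2 fold change was -2.24 (SE 0.18, edgeR quasi-likelihood adjusted p = 0.000343), and each cKO library lay below each WT library. The gene counts join all isoforms and all cells of the ganglion. Libraries held between 16214912 and 18114418 counts. All 13 noradrenergic neuron markers were detected, and their summed level was 16000 to 17140 CPM in cKO ganglia and 19140 to 19930 CPM in WT ganglia, with no overlap. In bulk tissue, fewer cells of a type and less RNA per cell cannot be told apart. Libraries also differed apart from genotype. Muscle and cartilage markers summed to 231 CPM in cKO 1 and 120 CPM in WT 1, and to at most 76.4 CPM in the other libraries. Sensory neuron markers summed to 143 CPM in cKO 4 and 59.1 CPM in WT 4, and to at most 45.4 CPM in the others. Genes with under 1000 bases of merged exons had a median deviation in log2 CPM from their own mean of -0.23 in cKO 1, 0.16 in cKO 2, -0.10 in cKO 3 and 0.24 in cKO 4, against -0.19 in WT 1, -0.08 in WT 2, 0.24 in WT 3 and 0.05 in WT 4.

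Of the 10 genes, 3 were called higher in cKO ganglia at an adjusted p below 0.05 and 0 were called lower: Egln3, Ndufa4l2 and Cox4i2. Over the 14592 genes tested 2.72% were called in either direction and 1.6% were called higher, and nothing is read from the members' count because the choice of members used this comparison. The same 3 genes had groups that did not overlap, which held for 11% of all genes tested, 6% higher and 5.02% lower. The median log2 fold change was 0.46 over the 10 genes and -6e-04 over all genes tested. Of the members, 9 had positive log2 fold changes and 1 a negative log2 fold change.

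**Figure D1:**
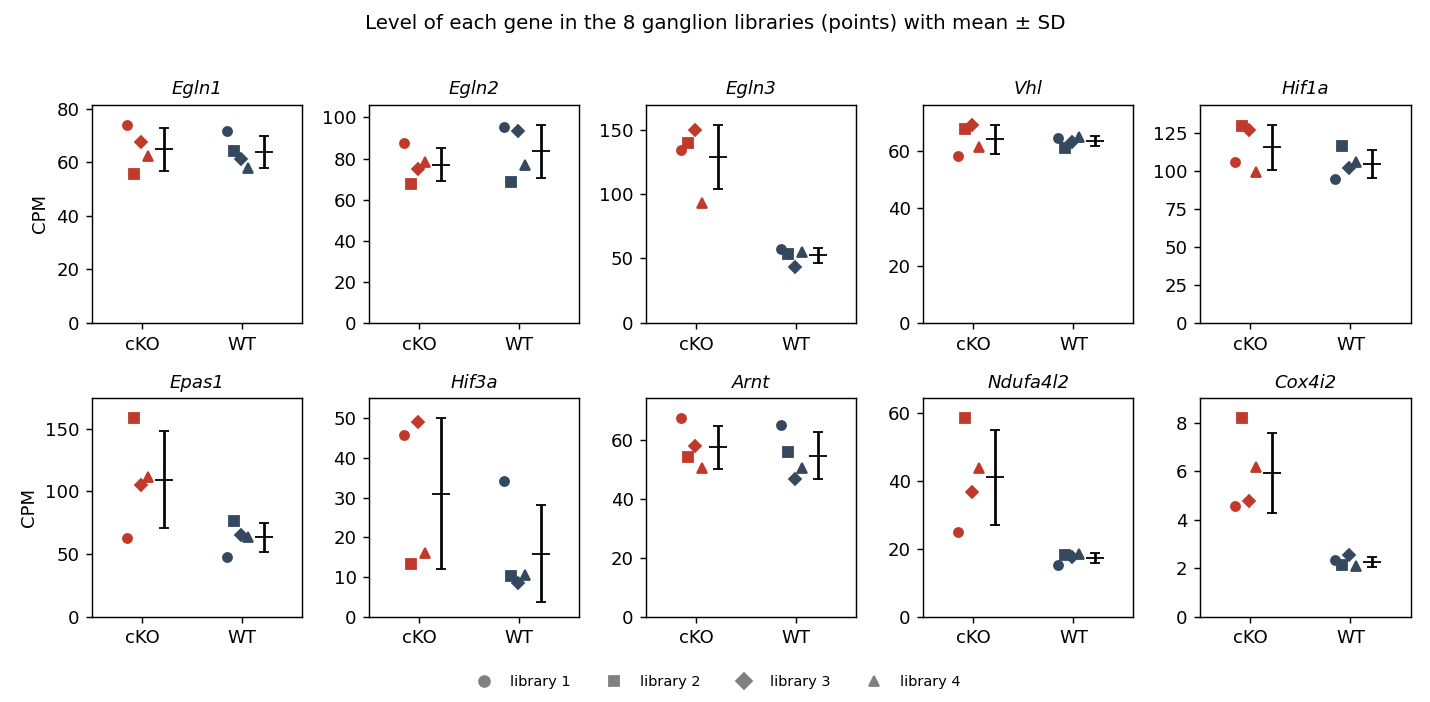
CPM of each of the 10 genes in the 8 libraries, cKO in red on the left and WT in blue on the right of each panel; symbols mark the library number, and bars show the mean ± SD of 4 libraries. Egln3, Ndufa4l2 and Cox4i2 are the genes whose cKO libraries all lie above all WT libraries.

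Egln3 (chr12:54178981-54203860, minus strand, GRCm38) encodes a prolyl hydroxylase that HIF itself induces. It had 134, 140, 149 and 92.9 CPM in cKO 1 to 4, against 57.5, 53.5, 43.4 and 54.8 CPM in WT 1 to 4. Even the lowest cKO library, cKO 4, stood well above the highest WT library, and the other 3 cKO libraries lay close together. The means were 129 ± 24.9 CPM in cKO and 52.3 ± 6.16 CPM in WT ganglia (SD, n = 4 each), a log2 fold change of 1.30 (SE 0.16) or 2.47-fold. Over the 18 alternatives its log2 fold change lay between 1.19 and 1.45.

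The other prolyl hydroxylases did not share this pattern. Egln1, the main oxygen sensor of most cells, had 74.0, 55.4, 67.5 and 62.1 CPM in cKO 1 to 4, against 71.7, 64.2, 61.3 and 57.9 CPM in WT 1 to 4. Its groups overlapped throughout, with a log2 fold change of 0.02 (SE 0.12). Egln2, a paralogue that HIF is not known to induce, had 87.4, 67.7, 75.1 and 78.1 CPM in cKO 1 to 4, against 95.6, 68.4, 93.2 and 76.7 CPM in WT 1 to 4. Its log2 fold change was -0.12 (SE 0.13), and the lowest libraries of the groups were nearly equal. Within a library, Egln3 stood at 181%, 252%, 221% and 150% of Egln1 in cKO 1 to 4, against 80.2%, 83.2%, 70.8% and 94.7% in WT 1 to 4. This ratio of CPM, which is not corrected for gene length, did not overlap between the groups. Per kilobase of merged exons, Egln3 had 50.3, 52.5, 56.1 and 34.9 CPM in cKO 1 to 4, against 21.6, 20.1, 16.3 and 20.6 CPM in WT 1 to 4. Egln1 had 20.6, 15.4, 18.8 and 17.3 CPM per kilobase in cKO 1 to 4, against 19.9, 17.9, 17.1 and 16.1 in WT 1 to 4. Per length, Egln3 thus stood above Egln1 in each library except WT 3. As a share of the summed noradrenergic neuron markers, Egln3 was 0.773% ± 0.155 in cKO and 0.269% ± 0.0356 in WT ganglia (SD, n = 4 each), again without overlap. Egln3 did not overlap on its own and was chosen with its difference known. Its ratio to Egln1 and this share are therefore no separate evidence.

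Vhl, which encodes the substrate-binding part of the ligase, varied least of the 10 genes in WT ganglia relative to its mean. It had 58.3, 67.8, 69.1 and 61.3 CPM in cKO 1 to 4, against 64.7, 61.2, 63.2 and 65.0 CPM in WT 1 to 4, a log2 fold change of 0.01 (SE 0.09). Egln1, Egln2 and Vhl thus overlapped between the groups in each case.

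**Figure D2:**
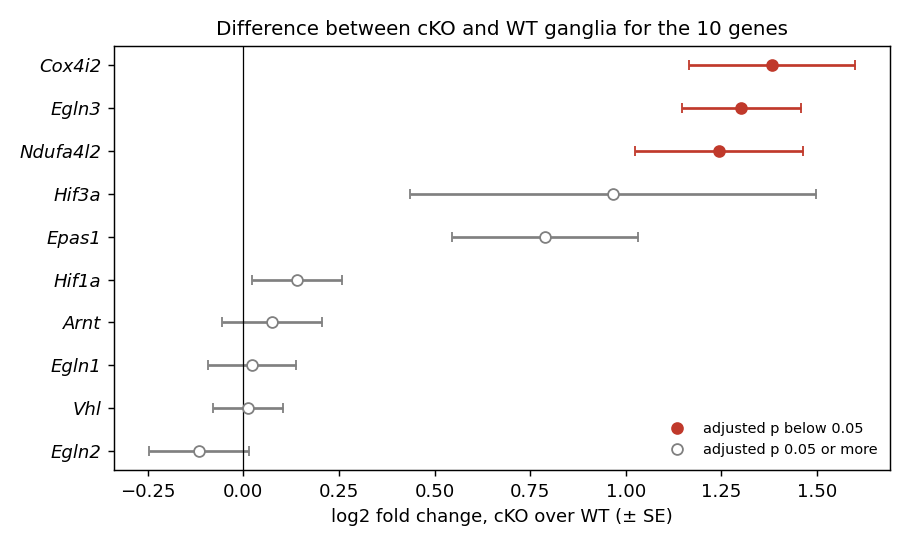
Log2 fold change of cKO over WT with its standard error for the 10 genes; filled red points passed an adjusted p of 0.05 in the fit across all genes and open grey points did not. Cox4i2, Egln3 and Ndufa4l2 lie between 1.24 and 1.38, and Egln1, Egln2, Vhl, Hif1a and Arnt between -0.12 and 0.14.

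Among the HIF subunits, Hif1a, the broadly expressed alpha subunit, had 106, 130, 127 and 99.4 CPM in cKO 1 to 4, against 94.5, 116, 102 and 106 CPM in WT 1 to 4. The groups overlapped, with a log2 fold change of 0.14 (SE 0.12). Arnt, the shared beta subunit, averaged 57.5 ± 7.26 CPM in cKO and 54.6 ± 8.01 CPM in WT ganglia (SD, n = 4 each), a log2 fold change of 0.07 (SE 0.13).

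Epas1 (chr17:86753700-86833410, plus strand) encodes HIF-2 alpha, which is prominent in endothelium, pericytes and sympathoadrenal cells. It had 63.1, 159, 105 and 111 CPM in cKO 1 to 4, against 47.9, 76.6, 65.2 and 63.6 CPM in WT 1 to 4. Of the cKO libraries, cKO 2 to 4 lay above every WT library, while cKO 1 lay below WT 2, WT 3 and WT 4. The log2 fold change was 0.79 (SE 0.24), which did not pass. Epas1 was called higher in 5 of the 18 alternatives: with the Wald test of DESeq2, with a block for the library number, without cKO 1, without both libraries numbered 1, and without cKO 1, cKO 3 and WT 1. The last 2 of these sets were chosen after seeing the data. The log2 fold change was 0.56 without cKO 2 and 0.97 without cKO 1.

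Hif3a, whose splice forms include inhibitors of the other HIF subunits, split the libraries in another way. It had 45.8 and 48.9 CPM in cKO 1 and cKO 3 but 13.3 and 15.9 CPM in cKO 2 and cKO 4, against 34.1 CPM in WT 1 and 10.3, 8.42 and 10.6 CPM in WT 2, WT 3 and WT 4. The high libraries thus came from both genotypes, and the log2 fold change of 0.97 had an SE of 0.53. Without WT 1 it was 1.66 and without cKO 3 it was 0.66, and it was not called in any of the 18 alternatives. Genes with short exon models were below their mean in the same 3 libraries and in WT 2, and muscle and cartilage markers were high in cKO 1 and WT 1 but not in cKO 3; their part in the Hif3a levels was not tested.

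Ndufa4l2 (chr10:127514967-127517154, plus strand) encodes a relative of the complex IV subunit NDUFA4 and is a HIF target that lowers oxygen use. It had 24.9, 58.3, 36.8 and 43.6 CPM in cKO 1 to 4, against 15.1, 18.1, 17.4 and 18.4 CPM in WT 1 to 4. All cKO libraries lay above all WT libraries, and they spread far more than the WT libraries. The means were 40.9 ± 13.9 CPM in cKO and 17.3 ± 1.47 CPM in WT ganglia (SD, n = 4 each), a log2 fold change of 1.24 (SE 0.22). The gene overlaps Shmt2, a mitochondrial serine enzyme, on the opposite strand, and with no stated strand setting reads from the overlap cannot be assigned. Shmt2 differed by 0.28 on the log2 scale (SE 0.09, edgeR adjusted p = 0.126).

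Cox4i2 (chr2:152754173-152765037, plus strand) encodes the alternative form of complex IV subunit 4, which HIF induces in many cells and which lung and glomus cells use. Its level was low, at 4.57, 8.18, 4.77 and 6.15 CPM in cKO 1 to 4, against 2.33, 2.13, 2.52 and 2.07 CPM in WT 1 to 4. These values rest on 80 to 137 counts in cKO libraries and 34 to 44 counts in WT libraries. No cKO library reached down to the WT range, and the log2 fold change was 1.38 (SE 0.22). The calls of Cox4i2 and Ndufa4l2 were each lost without WT 2, without WT 4 and without both libraries numbered 4, although the log2 fold changes stayed between 1.24 and 1.36 in those fits.

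The ordinary partners of these subunits did not differ in the same way. Ndufa4 averaged 179 ± 43.1 CPM in cKO and 192 ± 41.3 CPM in WT ganglia (SD, n = 4 each), with a log2 fold change of -0.11 (SE 0.19). Cox4i1 averaged 446 ± 80.4 CPM in cKO and 452 ± 94.0 CPM in WT ganglia (SD, n = 4 each), with a log2 fold change of -0.02 (SE 0.17). Neither passed, and both changed sign in some alternatives. Set against its partner in each library, Ndufa4l2 was 22.7% ± 4.51 of Ndufa4 in cKO and 9.21% ± 1.47 in WT ganglia (SD, n = 4 each). Likewise Cox4i2 was 1.32% ± 0.249 of Cox4i1 in cKO and 0.512% ± 0.0869 in WT ganglia (SD, n = 4 each). Neither ratio of CPM overlapped between the groups. Ndufa4l2 and Cox4i2 did not overlap on their own and were chosen with their differences known. These ratios are therefore no separate evidence.

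**Figure D3:**
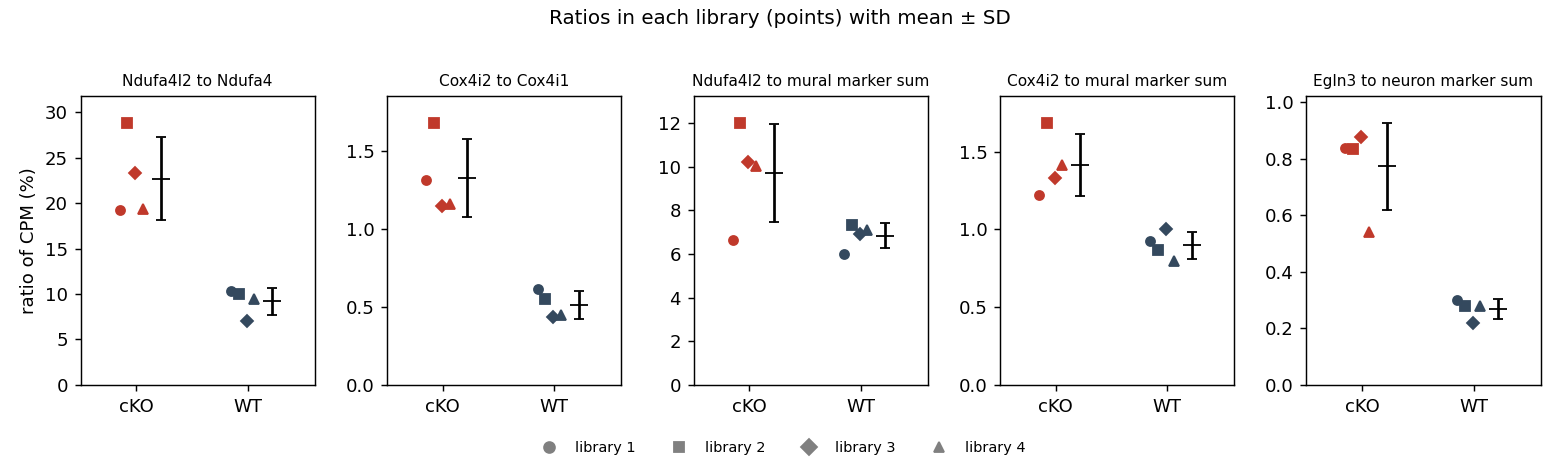
Ratios of CPM in percent for each library, cKO in red on the left and WT in blue on the right of each panel, with mean ± SD of 4 libraries. The ratio of Ndufa4l2 to summed mural markers overlaps between the groups through cKO 1, and the other 4 ratios do not overlap.

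Ndufa4l2, Cox4i2 and Epas1 are known as genes of pericytes, the mural cells of small vessels, and vessel markers differed in these libraries. Of 13 mural cell markers 2 rose and 0 fell, Pdgfrb by 0.74 on the log2 scale (SE 0.14, edgeR adjusted p = 0.0231) and Notch3 by 0.79 (SE 0.16, edgeR adjusted p = 0.0285), and all 13 log2 fold changes were positive with a median of 0.74. Their sum was 359 to 485 CPM in cKO ganglia and 247 to 260 CPM in WT ganglia, and no mural marker was at 0. Of 12 endothelial markers 3 rose, Pecam1, Tek and Eng, with log2 fold changes of 0.54 to 0.70, and their sum was 338 to 367 CPM in cKO ganglia and 209 to 287 CPM in WT ganglia. In edgeR 11 of the 13 mural and 11 of the 12 endothelial markers had an unadjusted p below 0.05. DESeq2 called 7 mural and 6 endothelial markers, and 974 of 16152 genes in all, 539 of them higher. Over all genes tested, edgeR called 1.6% higher. The share of all genes at an unadjusted p below 0.05 was not computed. As a share of the mural sum, Cox4i2 was 1.22%, 1.69%, 1.33% and 1.41% in cKO 1 to 4, against 0.923%, 0.864%, 1.00% and 0.796% in WT 1 to 4, with no overlap. Ndufa4l2 was 6.64%, 12.02%, 10.2% and 10.0% of the mural sum in cKO 1 to 4, against 6.001%, 7.32%, 6.93% and 7.09% in WT 1 to 4, so that cKO 1 lay within the WT range. Egln3 was 31.9% ± 8.73 of the mural sum in cKO and 20.7% ± 2.40 in WT ganglia (SD, n = 4 each), and cKO 4 lay within the WT range. Epas1 was 26.1% ± 6.80 of the mural sum in cKO and 25.1% ± 4.97 in WT ganglia, and 30.9% ± 10.4 of the endothelial sum in cKO and 26.5% ± 8.17 in WT ganglia (SD, n = 4 each), overlapping in both. The part of vessel content in these levels was not tested.

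Within the cKO group, Epas1, Ndufa4l2 and Cox4i2 ordered the libraries alike, with cKO 2 highest, then cKO 4, cKO 3 and cKO 1. Some steps of this order were small. Cox4i2 had 84 counts in cKO 3 and 80 in cKO 1, and Epas1 had 111 CPM in cKO 4 and 105 CPM in cKO 3. These genes did not order the WT libraries alike, where WT 2 was highest for Epas1, WT 4 for Ndufa4l2 and WT 3 for Cox4i2. Mural markers differed in their order of the cKO libraries. Pdgfrb had the reverse order, with cKO 1 highest and cKO 2 lowest, whereas Kcnj8 had the same order as Epas1. Rgs5 was highest in cKO 2 and lowest in cKO 1. The sum of the mural markers was 375, 485, 359 and 435 CPM in cKO 1 to 4. In cKO libraries Egln3 followed another order, from cKO 3 and cKO 2 to cKO 1 and cKO 4. After each gene was centred within its group, the root mean square difference of log2 CPM over the 8 libraries was 0.12 between Ndufa4l2 and Epas1 and 0.19 between Ndufa4l2 and Cox4i2. It was 0.41 between Egln3 and Ndufa4l2, 0.37 between Egln3 and Cox4i2, and 0.73 between Egln3 and Hif3a. Hif3a differed more from Ndufa4l2 (1.09), Cox4i2 (0.997) and Epas1 (1.14) than from Egln3. Ndufa4l2 and Cox4i2 have exon models of 1095 and 788 bases, and genes with models under 1000 bases were higher in cKO 2 and cKO 4 than in cKO 1 and cKO 3. Epas1, with a model of 5590 bases, followed the order as well; the part of gene length was not tested.

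The carotid body, which lies beside the ganglion, holds oxygen-sensing glomus cells that express Cox4i2, Ndufa4l2 and Epas1. Of 6 chromaffin and glomus cell markers 0 rose and 1 fell, against 1.6% called higher and 1.12% called lower over all genes tested. Olfr78, an olfactory receptor of glomus cells and other tissues, averaged 108 ± 10.9 CPM in cKO and 173 ± 4.13 CPM in WT ganglia (SD, n = 4 each), a log2 difference of -0.69 (SE 0.10, edgeR adjusted p = 0.00673). Higd1c, a respiratory protein gene of glomus cells, averaged 1.11 ± 0.415 CPM in cKO and 1.94 ± 0.437 CPM in WT ganglia (SD, n = 4 each), and did not pass (edgeR adjusted p = 0.211). Pnmt, the adrenaline-synthesis gene, averaged 7.14 ± 0.975 CPM in cKO and 6.99 ± 1.24 CPM in WT ganglia (SD, n = 4 each). The other members had positive log2 fold changes that did not pass, with the potassium channel genes Kcnk3 at 0.69 (SE 0.18, edgeR adjusted p = 0.0702) and Kcnk9 at 0.18 (SE 0.29, edgeR adjusted p = 0.845) and the adenosine receptor gene Adora2a at 0.60 (SE 0.25, edgeR adjusted p = 0.246). Kcnk3 averaged 15.5 ± 1.603 CPM in cKO and 9.58 ± 2.44 CPM in WT ganglia (SD, n = 4 each), without overlap. Olfr78 and Higd1c, both lower in cKO ganglia, did not overlap either. Non-overlap thus held for 1 marker that was higher and 2 that were lower, against 6% higher and 5.02% lower over all genes tested. The 6 log2 fold changes were 4 positive and 2 negative, with a median of 0.10. The sum of the 6 markers was 140 to 161 CPM in cKO ganglia and 203 to 210 CPM in WT ganglia, and Olfr78 made up most of it. The part of these cells in the levels of Cox4i2, Ndufa4l2 and Epas1 was not tested.

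Markers of other cells moved as well. Of 7 fibroblast markers Pdgfra, Col1a2, Col3a1 and Ogn rose, 4 in all, with a summed level of 7225 to 10610 CPM in cKO and 5195 to 6703 CPM in WT ganglia. Of 8 glial markers 1 rose, the myelin gene Mbp, with a sum of 1098 to 1283 CPM in cKO and 836 to 1069 CPM in WT ganglia. In edgeR 7 fibroblast and 5 glial markers had an unadjusted p below 0.05, and DESeq2 called 6 fibroblast and 5 glial markers. Over all genes tested, edgeR called 1.6% higher and 1.12% lower, and DESeq2 called 974 of 16152 genes. None of 13 noradrenergic markers passed in edgeR, where 4 had an unadjusted p below 0.05, and DESeq2 called 2. None of the tested 6 macrophage, 7 muscle and cartilage, 6 sensory neuron and 2 red blood cell markers passed in edgeR, with 1, 2, 1 and 0 at an unadjusted p below 0.05, and DESeq2 called 0 of these. Macrophage markers summed to 90.4 to 130 CPM in cKO and 76.3 to 105 CPM in WT ganglia. Red blood cell markers summed to 66.5 CPM in cKO 1, 38.9 CPM in WT 1 and at most 8.69 CPM in the others, with Hba-a1 and Hba-a2 at 0 in all libraries. Their part in the levels of the 10 genes was not tested.

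Per kilobase of merged exons, the order of the members differed between the genotypes. In cKO ganglia Egln3 came first at 48.5 ± 9.35 CPM per kilobase, followed by Ndufa4l2 at 37.4 ± 12.7 and Egln2 at 27.5 ± 2.91 (SD, n = 4 each). Next came Vhl at 21.4 ± 1.73, Epas1 at 19.6 ± 6.99, Hif1a at 19.6 ± 2.55 and Egln1 at 18.02 ± 2.20, and last Cox4i2 at 7.51 ± 2.11, Arnt at 7.18 ± 0.907 and Hif3a at 4.62 ± 2.83 CPM per kilobase (SD, n = 4 each). In WT ganglia Egln2 came first at 29.8 ± 4.67 CPM per kilobase, followed by Vhl at 21.2 ± 0.575 and Egln3 at 19.6 ± 2.31 (SD, n = 4 each). Hif1a at 17.8 ± 1.55, Egln1 at 17.7 ± 1.63, Ndufa4l2 at 15.8 ± 1.34 and Epas1 at 11.3 ± 2.11 came next, and Arnt at 6.82 ± 1.00, Cox4i2 at 2.87 ± 0.260 and Hif3a at 2.36 ± 1.82 CPM per kilobase closed the list (SD, n = 4 each). Neighbours in the cKO order overlapped in their 4 libraries except Egln2 over Vhl and Egln1 over Cox4i2. In the WT order the exceptions were Egln2 over Vhl, Ndufa4l2 over Epas1, Epas1 over Arnt and Arnt over Cox4i2. With the longest transcript in place of merged exons the order turned in places. Arnt, at 12.6 CPM per kilobase, then stood above Epas1 at 11.5 in WT ganglia, and at 13.3 it stood above Cox4i2 at 8.07 in cKO ganglia. Egln3 kept rank 1 in cKO ganglia and had rank 4 in WT ganglia, below Hif1a at 22.2 CPM per kilobase, and in cKO ganglia Hif1a at 24.4 then stood above Vhl and Epas1. Ndufa4 had 129 ± 31.2 CPM per kilobase in cKO and 139 ± 29.9 in WT ganglia (SD, n = 4 each). Cox4i1 had 288 ± 51.9 CPM per kilobase in cKO and 292 ± 60.7 in WT ganglia (SD, n = 4 each), so both stood far above their hypoxic counterparts.

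**Figure D4:**
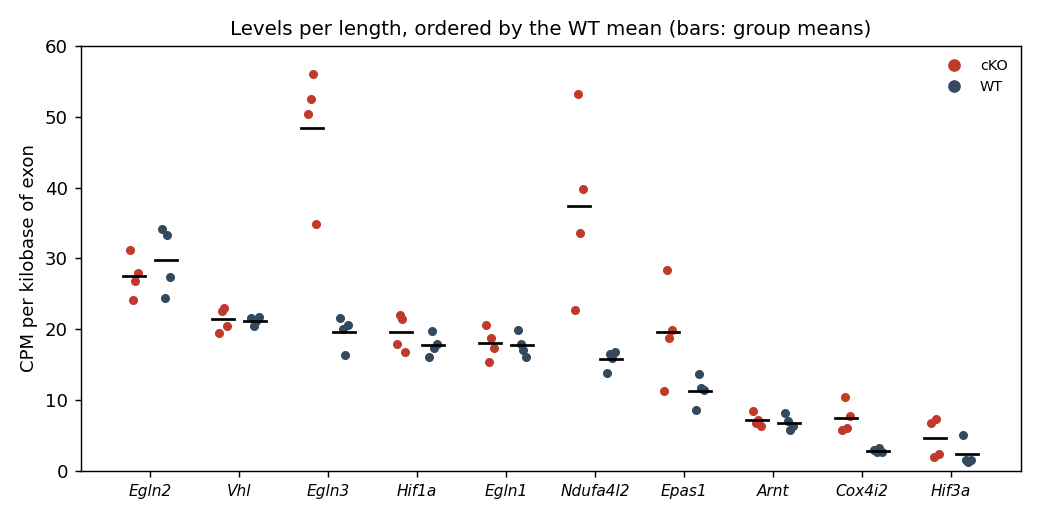
CPM per kilobase of merged exons for the 10 genes, ordered by the WT mean, with cKO libraries in red left of WT libraries in blue and group means as bars. Egln3 has rank 1 in cKO and rank 3 in WT ganglia, and Ndufa4l2 has rank 2 in cKO and rank 6 in WT ganglia.

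The wider HIF pathway was described with lists that do not contain the 10 genes. None of 17 regulators and cofactors passed in edgeR, with 0 at an unadjusted p below 0.05 and 0 called by DESeq2 or limma voom, and the median log2 fold change was -0.02. The smallest p-values belonged to Arnt2, the neuronal relative of Arnt, at -0.31 (SE 0.15, edgeR adjusted p = 0.321) and Siah1a, a ubiquitin ligase that acts on prolyl hydroxylases, at 0.19 (SE 0.11, edgeR adjusted p = 0.432).

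Of 19 HIF target genes of glucose use, 0 rose and 2 fell. Slc2a3, the neuronal glucose transporter GLUT3, had 547, 541, 577 and 550 CPM in cKO 1 to 4, against 743, 798, 719 and 774 CPM in WT 1 to 4. The groups were far apart relative to their spread, and a difference of -0.45 on the log2 scale (SE 0.08, edgeR adjusted p = 0.0190). Aldoc, a glycolytic aldolase, had 57.3, 64.8, 65.0 and 93.1 CPM in cKO 1 to 4, against 102, 127, 183 and 141 CPM in WT 1 to 4. It differed by -0.98 on the log2 scale (SE 0.20, edgeR adjusted p = 0.0285). The list had 16 negative and 3 positive log2 fold changes and a median of -0.22, against -6e-04 over all genes tested and 1.12% of them called lower. Its members below the threshold included the main neuronal hexokinase gene Hk1 at -0.35 (SE 0.10, edgeR adjusted p = 0.0940) and the glucose transporter gene Slc2a1 at 0.07 (SE 0.10, edgeR adjusted p = 0.812), both named after their values were seen. Gapdh, Pgk1, Pgam1 and Eno1 had means of at most 25 CPM, and reads of such genes may be shared with processed copies, so their levels are uncertain. The call of Slc2a3 was lost without cKO 2, cKO 3, WT 2 or WT 4, that of Aldoc without each single library except cKO 4 and WT 1, and both without the libraries numbered 4. The noradrenergic marker sum was lower in cKO libraries too, and its part in these falls was not tested.

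Of 32 tested HIF targets of vessels, matrix and other roles, 2 rose and 0 fell, against 1.6% called higher and 1.12% called lower over all genes tested. The groups did not overlap for 7 that were higher and 1 that was lower, against 6% higher and 5.02% lower over all genes tested. Lox, the collagen cross-linking enzyme, had 31.2, 35.5, 28.1 and 40.1 CPM in cKO 1 to 4, against 20.1, 18.1, 13.2 and 22.2 CPM in WT 1 to 4 (log2 fold change 0.87, SE 0.17, edgeR adjusted p = 0.0273). Adm, the vasodilator adrenomedullin, had 20.8, 37.4, 25.3 and 32.0 CPM in cKO 1 to 4, against 16.1, 16.3, 18.2 and 17.3 CPM in WT 1 to 4 (log2 fold change 0.77, SE 0.17, edgeR adjusted p = 0.0433). Both genes had groups without overlap, and Adm ordered the cKO libraries as Epas1, Ndufa4l2 and Cox4i2 did, but its order of the WT libraries differed from each of theirs. The list had 21 positive and 11 negative log2 fold changes with a median of 0.14. The widely used hypoxia marker Vegfa, named after its value was seen, stood at -0.24 (SE 0.15, edgeR adjusted p = 0.472). Fibroblast and vessel markers, given above, were higher in cKO libraries, and their part in these rises was not tested. The call of Lox was lost without cKO 2, cKO 4, WT 2 or WT 4, that of Adm without each single library except cKO 1 and with limma voom, and both without the libraries numbered 4.

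Among 14 tested complex IV subunits none passed in edgeR, with 0 at an unadjusted p below 0.05 and 0 called by DESeq2 or limma voom, and the median log2 fold change was -0.11. The tissue-specific forms Cox6b2 and Cox7a1 had the smallest p-values, with log2 fold changes of 0.45 (SE 0.23, edgeR adjusted p = 0.380) and 0.62 (SE 0.53, edgeR adjusted p = 0.648). Among 14 enzymes that make or use succinate, fumarate and 2-oxoglutarate, small molecules that set prolyl hydroxylase activity, none passed in edgeR, 1 had an unadjusted p below 0.05, and DESeq2 and limma voom called 0. Idh2 stood at a log2 difference of 0.27 (SE 0.10, edgeR adjusted p = 0.203) and Ogdh at -0.20 (SE 0.11, edgeR adjusted p = 0.427), and the median over the list was -0.01.

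**Figure D5:**
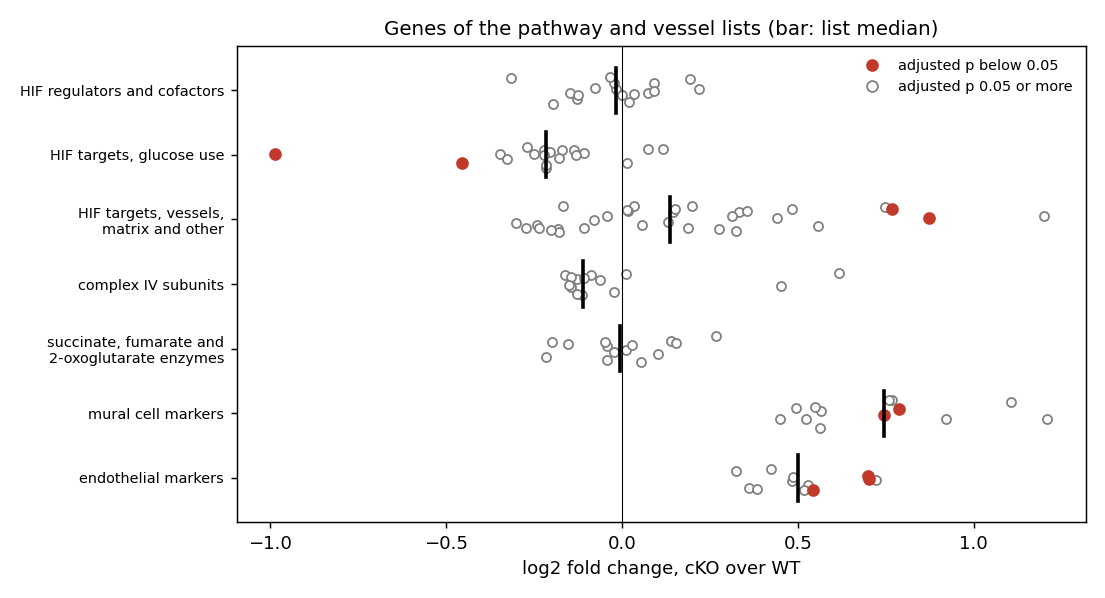
Log2 fold changes of cKO over WT for the genes of 5 HIF pathway lists and 2 vessel marker lists; filled red points passed an adjusted p of 0.05, open grey points did not, and black bars mark list medians. Medians lie at -0.22 for glucose targets, 0.14 for the other targets and 0.74 for mural markers.

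The genes whose levels ran closest to those of Egln3 over the 8 libraries were Capn6, Slc38a4, Sytl4, Kcnmb2 and Kcnip1. Likeness was the root mean square difference of log2 CPM after each of 11257 genes was centred on its own mean, and it was 0.15 for Capn6, a calpain relative, and 0.21 for Kcnip1, a potassium channel partner. Those nearest to Ndufa4l2 included Cxcl12, a chemokine, Gdf10, Mdk and Adm, at 0.16 to 0.26. Those nearest to Cox4i2 included Efhd1, Gdf10, Ogn and Mdk, at 0.19 to 0.25, so that Gdf10 and Mdk stood in both lists. Ogn is also in the list of fibroblast markers. The genes named here had higher means in cKO ganglia, which this measure favours. After centring within each group instead, 0 of the 5 nearest genes were the same for any of Egln3, Ndufa4l2 and Cox4i2.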

How the data were processed

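The authors deposited whole-number counts of reads for each gene symbol. Libraries were made from polyadenylated RNA with Truseq v2, per the labels. STAR was the aligner and mm10 the genome, per the submitters' processing notes. The counting program, annotation and strand setting were not given in the sources used here. Columns were matched to libraries by sample title. The members and lists were chosen with earlier results of these data known.

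A quasi-likelihood model in edgeR 4.0.16 (R 4.3.3) with genotype as its single term was fitted to the 14592 genes that passed filterByExpr, with TMM scaling and robust estimation. Genes were called at a Benjamini-Hochberg adjusted p below 0.05. The SE of a log2 fold change is its size over the root of the F statistic. CPM used TMM-scaled library sizes, and log2 CPM a prior count of 2. Exon lengths, coordinates and overlaps came from GENCODE vM21, whose GRCm38 coordinates are those of mm10. Replicates were separate animals and differed by more than sampling noise (chi-square per gene 7.72 to 55.5). Named genes were the members, Kif1b, Ndufa4, Cox4i1, up to 4 passing genes of each pathway list or the 2 with the smallest p, and for each of 3 members the 5 most similar genes at a mean of 5 CPM or more, of which some are not reported here. Marker genes, Vegfa, Hk1, Slc2a1, Gapdh, Pgk1, Pgam1, Eno1 and Shmt2 were named beyond this rule. The fit was tested on simulated data, where it recovered 25.4% of 1.5-fold, 89.6% of 2-fold and 98.5% of 4-fold changes. Of its calls there, 4.05% were false. A gene that did not pass may therefore still differ by a small fold. Alternatives used other scalings and filters, DESeq2 1.42.0, limma 3.58.1, a block for the library number, longest transcripts, and left-out libraries.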

Additional observations from a re-analysis of the deposited data

Results flagged for a closer look

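In a group of 4 libraries, a value was taken as standing apart when its gap to the nearest other library exceeded 0.829 of the group's range. Chance does this in about 1 in 20 groups, and 7 values stood apart among 66 groups. Hif3a had 34.1 CPM in WT 1, against 8.42 to 10.6 CPM in the other WT libraries. Cox7a1, the heart and muscle form of a complex IV subunit, had 3.14 CPM in cKO 1, against 0.568 to 0.917 CPM in the other cKO libraries. Ogdh, the 2-oxoglutarate dehydrogenase gene, had 263 CPM in WT 1, against 330 to 342 CPM in the other WT libraries. Summed muscle and cartilage markers were 231 CPM in cKO 1, against 64.2 to 76.4 CPM in the other cKO libraries, and 120 CPM in WT 1, against 51.8 to 54.1 CPM in the other WT libraries. Summed red blood cell markers were 66.5 CPM in cKO 1, against 3.70 to 8.31 CPM in the other cKO libraries, and 38.9 CPM in WT 1, against 3.95 to 8.69 CPM in the other WT libraries. No member other than Hif3a had a library that stood apart by this measure.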

How the results depend on the processing

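The count of genes called was 397, and it was 974 with the Wald test of DESeq2, 687 with the replicate block, 65 without both libraries numbered 4 and 978 without cKO 1, cKO 3 and WT 1. With 1 library left out it ranged from 74 to 514. Scaling by library size alone gave 70.3% of calls higher in cKO, against 58.9% with TMM. Of the 10 members 3 were called, and 1 was called without both libraries numbered 4, with a range of 1 to 4 when 1 library was left out. HIF targets of glucose use had 2 calls, 4 with DESeq2, 0 without both libraries numbered 4 and 0 to 2 with 1 library left out. HIF targets of vessels, matrix and other roles had 2 calls, 5 with DESeq2, 1 with limma voom, 0 without both libraries numbered 4, 4 without cKO 1, cKO 3 and WT 1, and 0 to 3 with 1 library left out. Regulators, complex IV subunits and succinate, fumarate and 2-oxoglutarate enzymes had 0 calls in every alternative run. The sets of 2 or 3 left-out libraries were chosen after seeing the data, fewer libraries also lower power, and the cause of these shifts was not tested.

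Same-numbered libraries correlated at 0.725, 0.352, -0.302 and 0.265 in their deviations from the group means, and cKO 2 correlated better with WT 3 (0.404) than with WT 2, so the replicate block rests on a shared number only. Among single genes, Cox7a1 changed sign without cKO 1 (-0.28) and without both libraries numbered 1 (-0.12), and ranged from -0.28 to 0.87 with 1 library left out. Ndufa4, from -0.24 to 0.032 with 1 library left out, did so without cKO 1 (0.0065), WT 3 (0.032), or cKO 1, cKO 3 and WT 1 (0.026). Cox4i1 did so with library size alone (0.026), without cKO 1 (0.066), cKO 3 (0.0018) or WT 3 (0.12), without both libraries numbered 1 (0.0046), and without cKO 1, cKO 3 and WT 1 (0.077). Of 413 log2 fold changes of single genes under alternatives, 376 counted as kept, 26 as a lost call and 11 as a changed sign. For genes other than the members, kept meant the same sign and the same call or lack of it. A member counted as kept when its log2 fold change moved by less than its SD within groups, whatever its call. The lost calls of Ndufa4l2 and Cox4i2 and the calls gained by Epas1, given above, were therefore counted as kept. So were changes of sign of uncalled members, such as Egln1 (-0.061) and Arnt (-0.023) without cKO 1, and Vhl (-0.0305) without cKO 3. The longest transcript in place of merged exons moved Arnt above Epas1 in WT ganglia and above Cox4i2 in cKO ganglia, as given with the levels.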
